A study of Rattus norvegicus with 65 samples.

Results

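The 34 genes described here make or respond to glycolysis and oxygen shortage, and were named as 16 glycolytic enzymes and 18 hypoxia targets. They were read in 65 arrays of rat mammary tumors from the probe sets annotated to them, with the brightest probe set taken for each gene. In all, 31 of the 34 genes had a usable probe set and all 31 passed the filter on dim probe sets, out of 8499 genes that passed it among 10411 genes on the array. They were 14 glycolytic enzymes (Hk1, Hk2, Gpi, Pfkl, Pfkm, Pfkp, Aldoa, Aldoc, Tpi1, Pgk1, Pgam1, Eno1, Eno2 and Ldha) and 17 hypoxia targets (Slc2a1, Slc2a3, Slc16a3, Pdk1, Pfkfb3, Vegfa, Adm, Ndrg1, P4ha1, P4ha2, Egln3, Ero1a, Bhlhe40, Higd1a, Bnip3, Ddit4 and Hmox1). Car9 was named by no probe set of the annotation used here. Pkm was named only by a probe set shared with other genes, and Gapdh only by 3 control probe sets, which are described apart.

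Glycolysis splits glucose into pyruvate in the cytoplasm, and lactate dehydrogenase turns pyruvate into lactate. When oxygen is scarce, the prolyl hydroxylases that mark the HIF alpha subunits for destruction slow down, and HIF with its partner ARNT then switches on genes for glucose uptake, glycolysis, blood vessel growth, collagen modification and the control of mitochondria. Many tumors, mammary tumors among them, also run glycolysis fast in the presence of oxygen, so a glycolytic enzyme is no specific sign of low oxygen.

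The tumors began as carcinogen-induced mammary tumors of rats and were passed through syngeneic hosts, which are animals genetically matched to the donor. There were 11 lines, called series 10, 13, 17, 19, 25L, 25R, 32, 33, 34, 36 and 42, each with a primary tumor and transplants 1 to 5, except that transplant 5 of series 10 was not analysed here. This gave 11 primary tumors, 11 tumors for each of transplants 1 to 4 and 10 for transplant 5, with 1 array a tumor. Neither the strain, the carcinogen, the site of transplantation nor the age of the animals is given in the labels, and no label gives the invasive behaviour of a single tumor. Whether series 25L and 25R came from 1 animal is not stated, nor whether tumors of a generation grew in separate animals, so the p-values measure the spread between these samples. RNA came from whole frozen tumor, so that fewer cells of a type and less RNA per cell cannot be told apart.

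Luminal epithelial markers, which define most mammary carcinomas, were low in all 6 tumors of series 42, with a mean of 11 genes between 5.68 and 5.84 on the log2 scale whose floor was 5.31. They were also low in series 34 from transplant 3 on (5.85 to 5.92) and in transplant 5 of series 32 (5.86). Skeletal muscle genes stood above a mean of 8 in 6 tumors (series 33 transplant 2, series 34 transplant 5, the primary tumor of series 42, transplants 2 and 3 of series 25L and transplant 3 of series 25R), and transplant 5 of series 32 had the lowest array median, 96.1. All these tumors were kept. The calls lost without the tumors with high muscle genes, or without the array with the lowest median, are given below.

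The members' promoters were read first, since HIF binds the core motifs ACGTG and GCGTG. Both were searched on both strands of the RefSeq windows (build GRCr8) that run from 250 bases before to 50 bases after each start. A gene counted once where any of its windows held the motif, and 29 of the 34 genes had a window (Pgk1, Slc2a3, Ndrg1, Ero1a and Hmox1 had none). ACGTG stood in 20 of 29 members (69%), against 20.9% of 27457 genes. GCGTG stood in 14 (48.3%, against 32.4%), and 1 or the other in 22 (75.9%, against 44.6%). The E-box CACGTG, which contains ACGTG on both strands, was in 4 members (13.8%, against 7.08%). The hypoxia targets Vegfa, Adm, Egln3 and Slc16a3 and the enzymes Hk2, Tpi1 and Pkm, 7 genes, had neither motif in any window, which says only that these letters are not in this window.

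The 250 bases before the start are shown for the 4 members with a match that had the largest difference between transplants and primary tumors past the test, with each motif in capitals as ACGTG or GCGTG, or as CACGT or CACGC where it lies on the other strand. The Higd1a promoter, at chr8:130400889-130401138 on the minus strand, has 3 matches, that of P4ha1 at chr20:27844796-27845045 on the plus strand has 2, that of Pfkp at chr17:68639563-68639812 on the plus strand has 1 and that of Pfkl at chr20:10663715-10663964 on the plus strand has 2. For P4ha1, Pfkp and Pfkl the start used lies inside the gene's annotated span. These matches are a description of sequence, and binding was not measured.
Higd1a: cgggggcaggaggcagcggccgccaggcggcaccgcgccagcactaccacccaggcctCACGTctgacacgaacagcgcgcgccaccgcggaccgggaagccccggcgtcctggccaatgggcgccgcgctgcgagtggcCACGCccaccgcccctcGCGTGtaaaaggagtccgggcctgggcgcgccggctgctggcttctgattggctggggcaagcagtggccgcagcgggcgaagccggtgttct
P4ha1: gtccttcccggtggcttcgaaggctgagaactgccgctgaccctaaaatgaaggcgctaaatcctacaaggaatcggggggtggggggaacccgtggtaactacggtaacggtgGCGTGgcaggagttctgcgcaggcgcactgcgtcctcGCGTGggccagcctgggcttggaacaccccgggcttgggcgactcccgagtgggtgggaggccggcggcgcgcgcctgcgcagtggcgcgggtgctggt
Pfkp: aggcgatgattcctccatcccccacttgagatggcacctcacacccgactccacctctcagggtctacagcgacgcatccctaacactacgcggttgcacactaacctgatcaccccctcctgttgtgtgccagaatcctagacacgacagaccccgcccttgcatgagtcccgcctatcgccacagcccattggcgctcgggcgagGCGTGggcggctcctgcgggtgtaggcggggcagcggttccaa
Pfkl: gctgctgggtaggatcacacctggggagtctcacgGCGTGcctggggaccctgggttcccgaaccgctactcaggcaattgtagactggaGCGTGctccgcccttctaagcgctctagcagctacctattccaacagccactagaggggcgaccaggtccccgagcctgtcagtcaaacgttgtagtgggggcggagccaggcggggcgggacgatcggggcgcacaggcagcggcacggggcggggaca

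Against the primary tumors, 12 of the 31 genes rose in the transplants and 0 fell at a limma adjusted p below 0.05, while 4.44% of all genes rose and 5.06% fell. Gpi, Pfkl, Pfkp, Aldoa, Tpi1, Pgk1, Pgam1, Eno1 and Ldha, were the 9 of 14 enzymes that rose. Of the 17 hypoxia targets 3 rose: Ndrg1, P4ha1 and Higd1a. All 31 differences were above 0 (30 without rescaling of the arrays), where 53.0% of all genes were, and their median was 0.35 on the log2 scale against 0.01 over all genes. The medians were 0.34 for the enzymes and 0.35 for the hypoxia targets. The rise of single genes was small, from 1.21-fold for Gpi to 1.75-fold for Ndrg1, and these calls depend on how the lines and arrays enter the fit. Reduced to 1 difference per line, 0 of the 31 genes passed (1.59% of all genes did) and 13 had an unadjusted p below 0.05. With neither lines nor pairing in the fit 0 passed (1.00% of all genes did), with 11 at an unadjusted p below 0.05. With arrays weighted by their quality 0 passed as well (3.89% of all genes did), with 11 at an unadjusted p below 0.05. Leaving out series 13 left 6 calls, with 6.72% of all genes called. Leaving out series 17, 25R or 33 left 7, with 5.74%, 5.82% and 6.73% of all genes called. Of all calls over the whole array 46.7% were higher, against 28.7% without rescaling and 42.6% after quantile normalization. In the fit used, 16 members and 25.4% of all genes had an unadjusted p below 0.05.

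**Figure D1:**
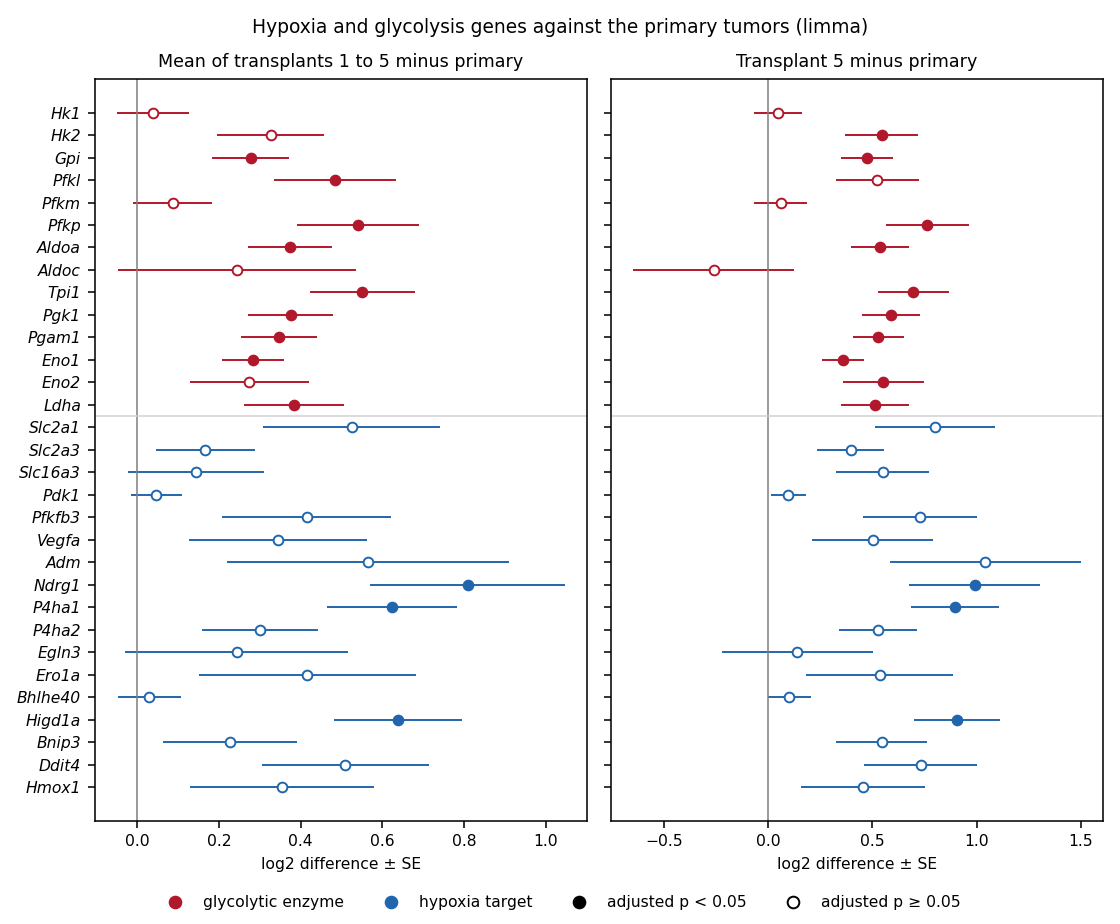
Log2 difference ± SE of each of the 31 genes in the mean of transplants 1 to 5 (left) and in transplant 5 (right) against the primary tumors. Red marks the 14 enzymes and blue the 17 hypoxia targets, and filled points passed limma adjusted p 0.05, 12 on the left and 13 on the right.

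Hexokinase, which traps glucose by phosphorylating it, is made from several genes. Hk2, the form that HIF and growth signals raise, had 6.34 as the lowest, 7.22 as the median and 8.33 as the highest log2 intensity in the primary tumors, and medians of 7.45, 7.49, 7.75, 7.62 and 8.01 in transplants 1 to 5. The ranges overlapped at every generation. Hk2 was higher by 0.33 ± 0.13 (SE) over all transplants, which did not pass (limma adjusted p = 0.102), and rose by 0.54 ± 0.17 at transplant 5 (adjusted p = 0.0291, higher in 8 of 10 lines). That call was lost without any 1 of series 13, 17 or 33 (adjusted p up to 0.127). Hk1, the form present in most tissues, differed by 0.04 ± 0.09, with primary tumors from 9.11 to 10.16 and transplants from 9.06 to 10.27. Its 3 control probe sets, added to the fit after seeing the data, differed by 0.12, 0.18 and 0.29 with adjusted p of 0.170 to 0.422.

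Gpi turns glucose 6-phosphate into fructose 6-phosphate. Its log2 intensity ran from 9.70 through a median of 10.42 to 11.22 in the primary tumors, and the medians of transplants 1 to 5 were 10.67, 10.64, 10.45, 10.60 and 10.69. Gpi rose by 0.28 ± 0.09 in the transplants (limma adjusted p = 0.0493, higher in 9 of 11 lines) and by 0.47 ± 0.12 at transplant 5 (adjusted p = 0.00875). The first call was lost without any 1 of series 10, 13, 17, 25L, 25R, 33 or 42 (adjusted p up to 0.142), while the second held in each of 11 fits that left out 1 line. With 1 value per line the second was lost as well (limma adjusted p = 0.0692).

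Phosphofructokinase is the committing and most regulated step, and its subunits come from 3 genes named for liver, muscle and platelet. Pfkp had primary tumors from 6.69 to 9.01 with a median of 7.67, and medians of 8.46, 8.43, 8.01, 8.29 and 8.61 in transplants 1 to 5. It rose by 0.54 ± 0.15 in the transplants (1.45-fold, limma adjusted p = 0.0153, higher in 9 of 11 lines) and by 0.76 ± 0.20 at transplant 5 (adjusted p = 0.00825), and both calls held without any single line. With 1 value per line both were lost (limma adjusted p = 0.0858 and 0.0590). Pfkl went from a primary median of 8.54 (7.41 to 9.88) to medians of 9.33, 9.09, 8.91, 9.19 and 9.24. It rose by 0.48 ± 0.15 over all transplants (adjusted p = 0.0319), a call lost without any 1 of series 10, 13, 17, 25L, 25R, 33 or 42 (adjusted p up to 0.105), and at transplant 5 its 0.52 ± 0.20 did not pass (0.0649). Pfkm, the muscle subunit, differed by 0.09 ± 0.10 (adjusted p = 0.617). The highest Pfkm value, 9.22, was in transplant 3 of series 25L, the tumor with the highest skeletal muscle mean (9.80), and the part of muscle in it was not tested.

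Aldolase A, from Aldoa, splits the 6-carbon sugar, and Aldoc encodes a form best known from brain. Aldoa had a primary median of 11.38 (10.47 to 12.61) and medians of 11.94, 11.86, 11.92, 11.90 and 12.11 in transplants 1 to 5. It rose by 0.37 ± 0.10 (limma adjusted p = 0.0153, higher in 9 of 11 lines) and by 0.54 ± 0.14 at transplant 5 (0.00751). The first call was lost without series 33 or 25L (adjusted p up to 0.0900). Aldoc behaved apart from the other enzymes: its difference was 0.24 ± 0.29 over all transplants and -0.26 ± 0.39 at transplant 5, the only negative difference among the 31 genes there, and neither passed. In series 25L Aldoc went from 8.43 in the primary tumor to 10.80 at transplant 3, and in series 32 from 9.88 at transplant 2 to 5.92 at transplant 3 and to the floor of 5.31 at transplants 4 and 5.

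Tpi1, triose phosphate isomerase, was the enzyme with the largest rise over all transplants. The 11 primary tumors ran from 9.54 through a median of 10.36 to 11.54, and the medians of transplants 1 to 5 were 11.32, 11.24, 11.25, 11.20 and 11.30. In the primary tumors of series 19, 32, 34, 36 and 42 Tpi1 stood at 10.99 or more, inside the range of the 54 transplants (10.18 to 11.79), while the primary tumors of series 13, 17 and 25L (9.92, 10.04 and 9.54) lay below every transplant. Tpi1 rose by 0.55 ± 0.13 in the transplants (1.46-fold, limma adjusted p = 0.00421), yet it was higher in only 7 of 11 lines. At transplant 4 the rise was 0.57 ± 0.17 (adjusted p = 0.0287) and at transplant 5 it was 0.70 ± 0.17 (0.00552), and the calls over all transplants and at transplant 5 held without any single line. With 1 value per line the adjusted p was 0.133 over all transplants.

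Gapdh, the next enzyme and a common reference gene on arrays, was read only from its 3 control probe sets, which lie toward the 3' end, the middle and the 5' end of the transcript. They were left out of the count of 31 and added to the fit with 6 other control probe sets after seeing the data, 9 in all. Their differences were 0.33 ± 0.08, 0.28 ± 0.09 and 0.27 ± 0.08 over all transplants (limma adjusted p = 0.00489, 0.0322 and 0.0201) and 0.47, 0.43 and 0.42 at transplant 5 (0.00245, 0.0103 and 0.00564). The control probe sets of beta-actin differed by 0.11 to 0.15 over all transplants, with adjusted p of 0.0963 to 0.155. At transplant 5, 2 of the 3 beta-actin control probe sets rose as well, by 0.19 ± 0.06 and 0.25 ± 0.08 (limma adjusted p = 0.0406 and 0.0315), and the other was higher by 0.17 ± 0.07 (0.0622).

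The later steps of glycolysis, which yield ATP, include Pgk1 and Pgam1. Pgk1, phosphoglycerate kinase, had a primary median of 11.02 (10.49 to 11.96) and medians of 11.68, 11.60, 11.50, 11.62 and 11.74. It rose by 0.38 ± 0.10 (limma adjusted p = 0.0160), a call lost without any 1 of series 13, 17 or 25R (up to 0.0715), and by 0.59 ± 0.14 at transplant 5 (0.00387). Pgam1, phosphoglycerate mutase, went from a primary median of 11.21 (10.61 to 11.97) to medians of 11.63, 11.62, 11.46, 11.61 and 11.73. It rose by 0.35 ± 0.09 (adjusted p = 0.0126, lost without series 13 at 0.0553) and by 0.53 ± 0.12 at transplant 5, where it was higher in 10 of 10 lines (0.00369). Pgk1 and Pgam1 were the genes that also passed at transplant 5 with 1 value per line (adjusted p = 0.0415 and 0.0343), where 1.56% of all genes passed.

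Eno1, the widespread enolase, had a primary median of 11.87 (11.48 to 12.69) and medians of 12.31, 12.25, 12.25, 12.32 and 12.26 in transplants 1 to 5. It rose by 0.28 ± 0.08 over all transplants (limma adjusted p = 0.0119, lost without series 10 at 0.0564). At transplant 4 it rose by 0.31 ± 0.10 (0.0465) and at transplant 5 by 0.36 ± 0.10 (0.0132), where all 10 lines were higher. The first and last of these calls were lost with 1 value per line (limma adjusted p = 0.119 and 0.0644) and after quantile normalization. The call at transplant 5 was also lost without rescaling and without the tumors with high muscle genes. Eno2, a neuronal enolase, differed by 0.27 ± 0.15 over all transplants (adjusted p = 0.231) and rose by 0.55 ± 0.19 at transplant 5 (0.0471). Its medians were 7.50 in the primary tumors and 7.43, 7.47, 7.38, 7.66 and 7.90 in transplants 1 to 5, and its call was lost without any 1 of series 17, 25L, 32, 33, 36 or 42 (up to 0.150).

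Ldha, whose product makes lactate, went from a primary median of 11.13 (10.20 to 12.14) to medians of 11.72, 11.73, 11.41, 11.70 and 11.47. It rose by 0.38 ± 0.12 over all transplants (limma adjusted p = 0.0394, higher in 7 of 11 lines), lost without any 1 of series 10, 13, 25L, 25R, 33 or 42 (up to 0.136). At transplant 5 it rose by 0.51 ± 0.16 (0.0291), lost without any 1 of series 10, 13, 25L, 33 or 34 (up to 0.0686).

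Higd1a, a small protein of the inner mitochondrial membrane, kept its calls over all transplants and at transplant 5 without any single line. With 1 value per line both were lost (limma adjusted p = 0.101 and 0.0745). The primary tumors ran from 8.41 through a median of 9.58 to 10.67, and the medians of transplants 1 to 5 were 10.24, 10.20, 9.79, 10.14 and 10.51. The lowest value was 8.41 in the primary tumors and 9.80 at transplant 5, so that the 10 tumors of transplant 5 lay above the primary tumors of series 10, 13, 17, 19, 25L, 25R and 33 and overlapped those of series 32, 34, 36 and 42. Higd1a rose by 0.64 ± 0.16 over all transplants (1.56-fold, limma adjusted p = 0.00598), by 0.72 ± 0.20 at transplant 2 (0.0471), by 0.66 ± 0.20 at transplant 4 (0.0388) and by 0.91 ± 0.21 at transplant 5 (0.00330). It was the 1 gene of the 31 that differed among the 6 generations in an F test (adjusted p = 0.0370), where 4.79% of all genes did. Its second, dimmer probe set gave 0.38 ± 0.14 over all transplants (adjusted p = 0.0763) and 0.62 at transplant 5 (0.0224).

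P4ha1 encodes the catalytic subunit of the hydroxylase that stabilises collagen. It had a primary median of 8.72 (7.92 to 9.85) and medians of 9.50, 9.39, 9.06, 9.30 and 9.51. P4ha1 rose by 0.62 ± 0.16 (limma adjusted p = 0.00856) and was higher in 10 of 11 lines, the exception being series 32, and it rose by 0.90 ± 0.21 at transplant 5 (0.00387). Without series 17, in which it went from 7.95 to 10.65 at transplant 5, the adjusted p over all transplants was 0.0512. P4ha2, another such subunit, differed by 0.30 ± 0.14 and did not pass (0.172).

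Ndrg1, a stress-responsive gene that hypoxia strongly raises in many cells, had the largest difference of the called genes. The primary tumors ran from 8.32 through a median of 9.67 to 11.80, and the medians of transplants 1 to 5 were 10.44, 10.92, 10.39, 10.08 and 10.65. Series 36 held the 6 values from 11.68 to 12.04, primary tumor included, and series 19 stayed between 8.20 and 9.67. Ndrg1 rose by 0.81 ± 0.24 (1.75-fold, limma adjusted p = 0.0228) and by 0.99 ± 0.32 at transplant 5 (0.0289). The first call was lost without any 1 of series 13, 17, 25R or 33 (adjusted p up to 0.120) and the second without series 13, 17 or 33 (up to 0.119).

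**Figure D2:**
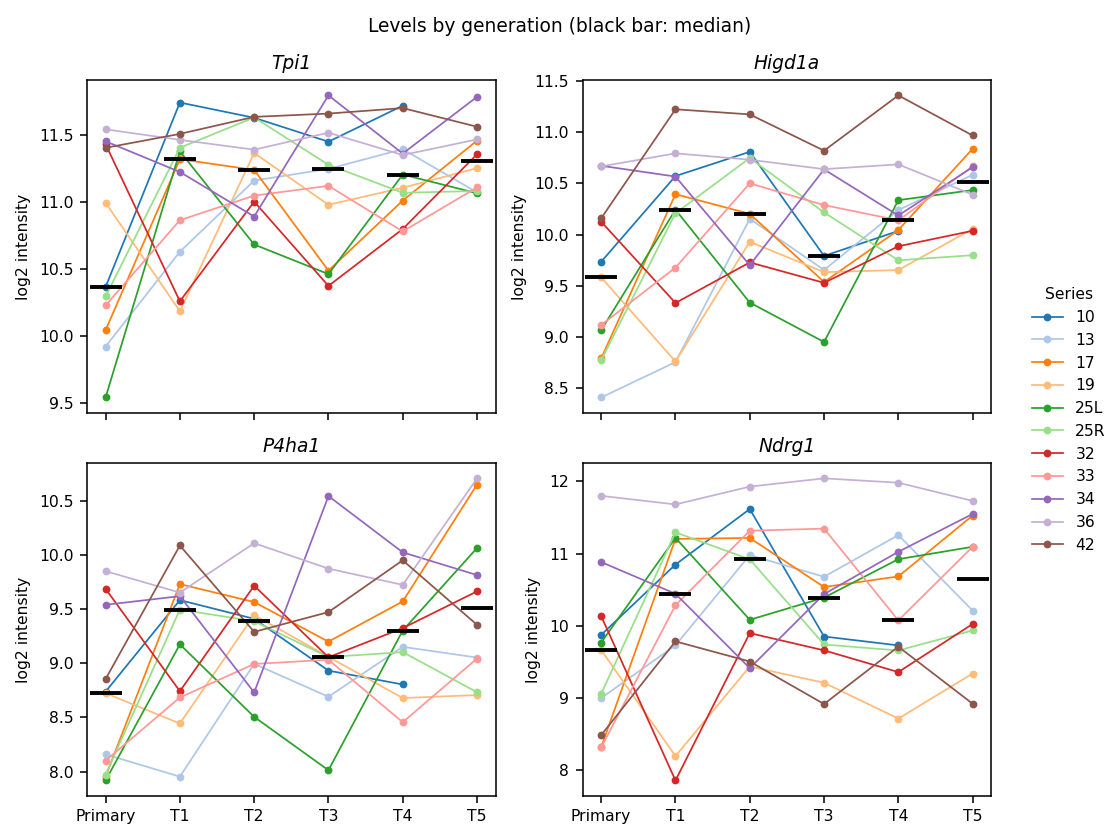
Log2 intensity of Tpi1, Higd1a, P4ha1 and Ndrg1 in each of the 65 tumors by generation, with 1 coloured line per series and a black bar at the median of the generation. Lines that began low, such as 13, 17 and 25L, were higher at transplant 5, and Ndrg1 of series 36 was high throughout. A low start and a later rise are not independent here, since the rise is measured from that same primary tumor.

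The other 14 hypoxia targets did not pass in either comparison, although their differences at transplant 5 were above 0. The glucose transporter gene Slc2a1 differed by 0.52 ± 0.22 over all transplants (limma adjusted p = 0.112) and by 0.80 ± 0.29 at transplant 5 (0.0515). Pfkfb3, which makes the activator of phosphofructokinase, differed by 0.73 ± 0.27 at transplant 5 (0.0624), the stress inhibitor of mTOR Ddit4 by 0.73 ± 0.27 (0.0585), P4ha2 by 0.53 ± 0.19 (0.0508) and the lactate exporter gene Slc16a3 by 0.55 ± 0.22 (0.0827). Bnip3, which marks mitochondria for removal, differed by 0.54 ± 0.22 (0.0815) and the vessel growth factor gene Vegfa by 0.50 ± 0.29 (0.240). Smaller differences were those of the prolyl hydroxylase gene Egln3 (0.14 ± 0.36), the transcriptional repressor gene Bhlhe40 (0.10 ± 0.10) and the pyruvate dehydrogenase kinase gene Pdk1 (0.10 ± 0.08). Slc2a1 and Pfkfb3 were past the threshold without series 32 in both comparisons.

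Adm, which encodes the vessel-dilating peptide adrenomedullin, was at the floor of 5.31 in 24 of 65 tumors, 7 of them primary tumors. Its highest values were 9.74 in transplant 3 of series 34, 9.19 and 9.04 in transplant 5 of series 36 and 17, and 8.71 in transplant 2 of series 32. The fitted difference of 1.04 ± 0.46 at transplant 5 did not pass (limma adjusted p = 0.115), and values at the floor carry no order, so no fold is given.

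Some genes had more than 1 probe set, and these did not always go together in a fit over all probe sets. The brighter probe set of Pdk1, used here, differed by 0.05 ± 0.06, while the other gave 0.65 ± 0.19 over all transplants (limma adjusted p = 0.0187) and 0.80 at transplant 5 (0.0240). For Vegfa the values were 0.34 ± 0.22 and 0.60 ± 0.24, for Ero1a 0.42 ± 0.27 and 0.49 ± 0.28, and for Pfkfb3 0.41 ± 0.21 and 0.25 ± 0.12. For Pfkm they were 0.09 ± 0.10 for the probe set used and 0.34 ± 0.15 for the dimmer one, and neither passed (limma adjusted p = 0.624 and 0.151). The dimmer probe set of Pfkfb3 passed at transplant 5 (0.51, adjusted p = 0.0319). The 2 bright probe sets of Pgk1 gave 0.38 ± 0.10 and 0.38 ± 0.13, and the other stood near the floor.

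By generation, most differences were above 0 at transplant 1, where none passed the test. The mean of the hypoxia targets was lower at transplant 1 than in the primary tumor in series 19, 32, 34 and 36, and higher in the other lines. At transplant 1, 30 of 31 differences were above 0 (50.9% of all genes) with a median of 0.27, 0 of 31 genes and 0 of 8499 genes passed in limma (0%), and 10 of 31 had an unadjusted p below 0.05 against 6.87% of all genes. At transplant 2, 1 gene rose, Higd1a, and 0 fell, while 0.635% of all genes rose and 1.05% fell (1.68% in either direction). All 31 differences were above 0 there (51.9% of all genes), and 14 members had an unadjusted p below 0.05 (15.3%). Transplant 3 had 0 calls by limma among the members, while 0.847% of all genes rose and 2.19% fell (3.04% in either direction). There 7 members had an unadjusted p below 0.05 (17.9%), 28 differences were above 0 (51.3%) and the median was the smallest, 0.25. At transplant 4, 3 rose, Tpi1, Eno1 and Higd1a, and 0 fell, while 2.81% of all genes rose and 3.47% fell (6.28% in either direction). There 29 differences were above 0 (52.1%) and 13 members had an unadjusted p below 0.05 (22.9%). At transplant 5, 13 of 31 rose and 0 fell, while 7.37% of all genes rose and 6.72% fell (14.1% in either direction). The median was 0.53, 30 differences were above 0 (54.6% of all genes; 26 without rescaling, 29 after quantile normalization) and 22 members had an unadjusted p below 0.05 (29.8%). Of all calls 52.3% were higher, against 16.7% without rescaling and 43.2% after quantile normalization. These 5 comparisons share the primary tumors.

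The passage from transplant 1 to transplant 5, which does not use the primary tumors, gave no call. The slope per transplant passed in limma for 0 of 31 genes, while 2.74% of all genes rose and 3.85% fell (6.59% in either direction). In all, 24 slopes were above 0 (55.0% of all genes) and 7 members had an unadjusted p below 0.05 (22.9%). The smallest adjusted p were those of Pgk1 (0.08 ± 0.03, adjusted p = 0.0685) and of Slc2a3, the neuronal glucose transporter gene (0.10 ± 0.04, 0.0786). By leaving out 1 line, 3 genes passed without series 25L (Hk2, Pgk1 and Slc2a3), 1 without series 25R (Pgk1) and 1 without series 42 (P4ha2). Of all genes 11.7%, 4.60% and 8.21% passed in these 3 fits. Within lines, the primary tumor was strictly the lowest of the line in 74 of 154 pairs of enzyme and line (48.1%) and in 77 of 187 pairs of hypoxia target and line (41.2%), against 21.5% over all genes. Transplant 5 was the highest in 40 of 140 enzyme pairs (28.6%) and 59 of 170 target pairs (34.7%), against 20.4% over all genes.

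**Figure D3:**
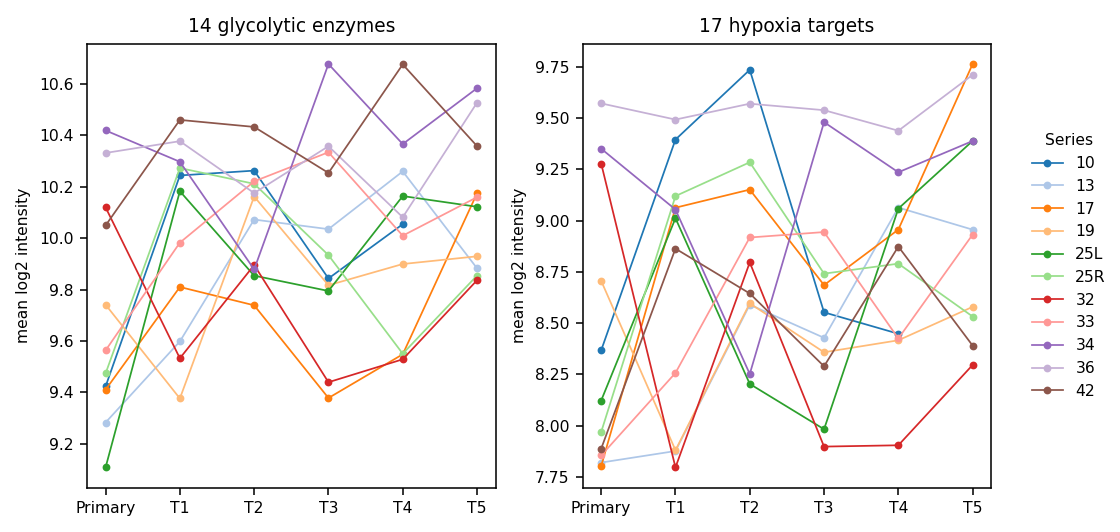
Mean log2 intensity of the 14 enzymes (left) and the 17 hypoxia targets (right) in each tumor by generation, 1 line per series. The enzyme means of the primary tumors were highest in series 34 (10.42), 36 (10.33), 32 (10.12) and 42 (10.05), and the target means in series 36 (9.57), 34 (9.35) and 32 (9.28).

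The lines differed more than the generations. All 31 genes differed among series in an F test of limma, where 83.5% of all genes did. Eno1 (67.5% of its variance between series), P4ha2 (62.4%) and Gpi (62.3%) had the largest shares, and Bhlhe40 (30.8%), Hmox1 (30.3%) and Bnip3 (27.0%) the smallest. The median share between series was 42.6% over the 31 genes and 43.0% over all genes. Generation took a median of 8.57% of the variance of the 31 genes and 6.06% over all genes. Its largest shares among the members were 19.8% for Tpi1, 19.2% for Pgk1 and 18.5% for Higd1a.

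Eno1 had its highest line means in series 42 (12.95 ± 0.19, SD, n = 6), 34 (12.65 ± 0.28) and 36 (12.57 ± 0.15), and its lowest in series 17 (11.78 ± 0.22) and 13 (11.95 ± 0.33). The means of the other 6 series lay between 12.02 and 12.20, with SDs of 0.13 to 0.41. Series 34 (11.30 ± 0.44), 42 (11.18 ± 0.18) and 36 (11.08 ± 0.30) also had the highest means of Gpi, and series 17 the lowest (10.15 ± 0.34). P4ha2 had another order, with 9.48 ± 0.68 in series 17, 9.15 ± 0.30 in series 36 and 9.02 ± 0.66 in series 34, and with series 42 and 13 lowest at 7.74 ± 0.28 and 7.69 ± 0.34, which do not differ beyond their spread.

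Among the genes with small shares between lines, neither line nor generation held 60.8% of the variance of Bhlhe40, 64.1% of that of Hmox1 and 62.5% of that of Bnip3. Bnip3 line means went from 9.33 ± 0.70 in series 32 to 10.25 ± 0.66 in series 34, and those of Bhlhe40 from 8.15 ± 0.20 in series 42 to 8.67 ± 0.07 in series 36. Hmox1, the inducible heme oxygenase gene, which macrophages also make, went from 8.18 ± 0.78 in series 13 to 9.55 ± 0.41 in series 42. Its highest single value was 10.98, in transplant 4 of series 25R.

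**Figure D4:**
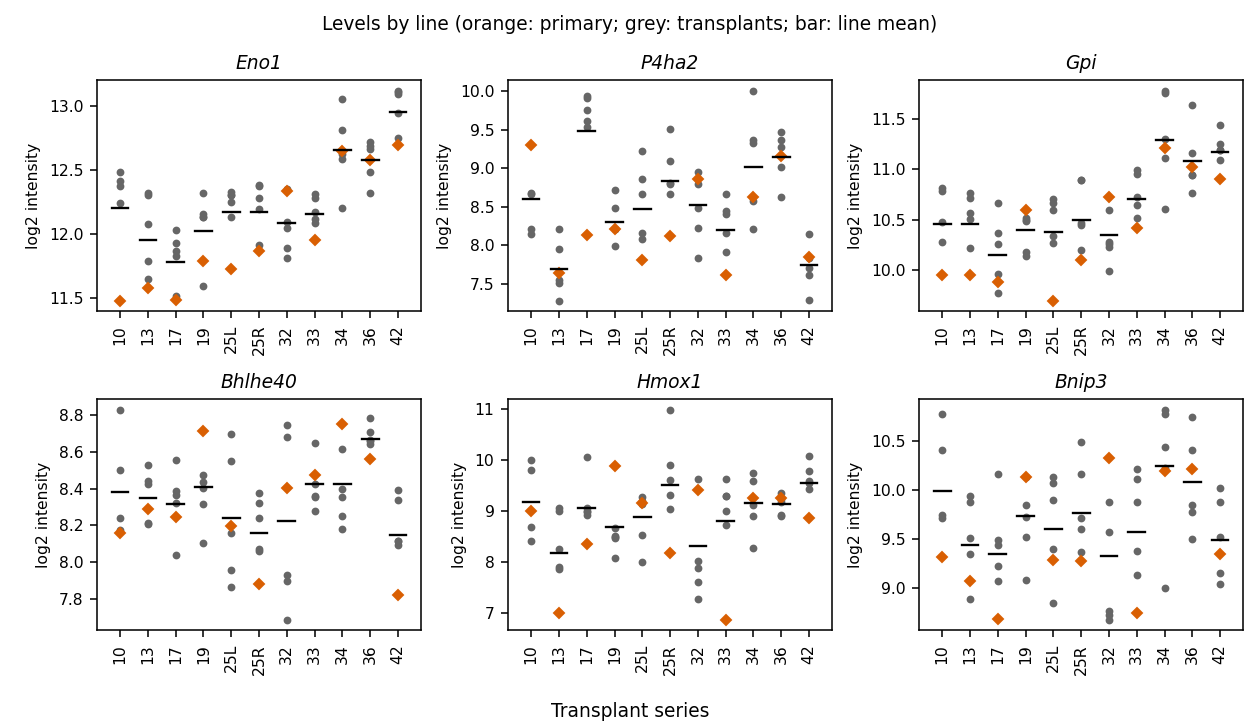
Log2 intensity of the 3 genes with the largest (Eno1, P4ha2, Gpi) and the 3 with the smallest (Bhlhe40, Hmox1, Bnip3) share of variance between series. Orange diamonds are primary tumors, grey points transplants and black bars line means, and Eno1 is highest in series 34, 36 and 42.

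The 31 genes were mostly higher in the transplants in 7 of the 11 lines, while the share of all genes that was higher ran from 46.2% (series 17) to 54.7% (series 10). In series 25R 12 of 14 enzymes and 17 of 17 hypoxia targets were higher than in the primary tumor, in series 13 it was 13 and 15, in series 33 13 and 15, in series 25L 14 and 15, in series 42 13 and 15, in series 10 12 and 14, and in series 17 11 and 17. Series 32 went the other way, with 1 of 14 enzymes (Eno2) and 1 of 17 targets (Slc2a3) higher, and medians of -0.44 and -1.21. Series 19 (6 and 6), 34 (7 and 6) and 36 (5 and 7) were mixed. No test was run on a single line, which holds 1 primary tumor.

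The primary tumors themselves covered a wide range in the hypoxia targets. Slc2a1 ran from 8.31 in series 13 to 10.91 in series 36, with 10.82 in series 34 and 10.67 in series 32. Ero1a, the gene of an oxidase that helps form disulfide bonds, ran from 7.70 in series 17 to 10.43 in series 36, with 10.39 in series 32 and 10.22 in series 34. Enzyme levels had a further high primary tumor, that of series 42, whose mean over the 14 enzymes was 10.05, next to 10.12 in series 32. No test was made of these levels. Each difference contains the primary tumor's own value, so the starting level and the difference are not independent measurements.

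**Figure D5:**
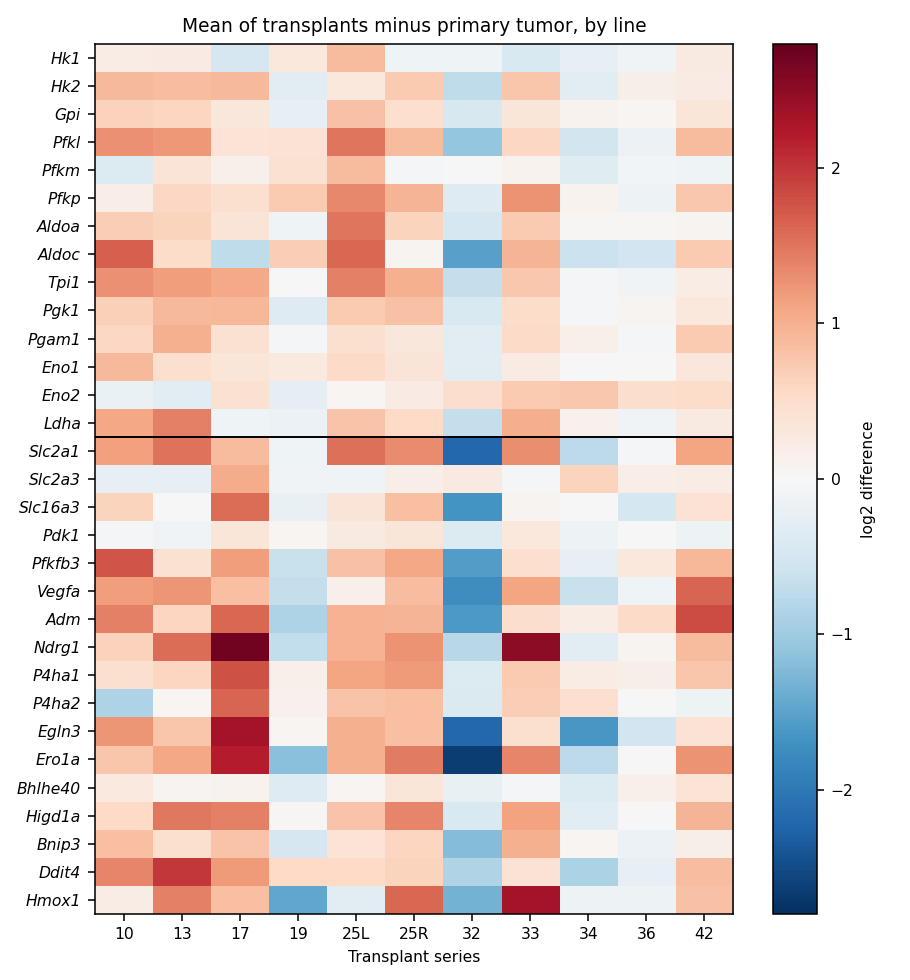
Log2 difference between the transplants' mean and the primary tumor for each of the 31 genes (rows, enzymes above the black line) and each series (columns). Red is higher in the transplants; series 32 is blue in most rows, and series 17 is dark red for Ndrg1, Egln3 and Ero1a.

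In series 17 many members peaked at transplant 5, as did 32.3% of all genes. There 15 of 17 hypoxia targets and 10 of 14 enzymes had the highest value of the line, and in its primary tumor 16 of 17 targets had the lowest, where 22.4% of all genes did. Ndrg1 went from 8.32 in the primary tumor to 11.20, 11.22, 10.54, 10.68 and 11.53 in transplants 1 to 5. P4ha1 went from 7.95 to 9.73, 9.57, 9.20, 9.57 and 10.65, and Slc2a1 from 9.25 to 10.09, 10.20, 9.35, 9.87 and 11.20. All 3 dipped at transplant 3 and peaked at transplant 5.

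Series 10 peaked earlier. At transplant 2 it had 12 of 17 targets at their line maximum (23.5% of all genes), and at transplant 1 it had 8 of 14 enzymes (25.2%). Slc2a1 read 9.30 in the primary tumor, 10.98 and 11.26 at transplants 1 and 2 and 9.78 at both later transplants. Adm read 5.31 (the floor), 7.79, 8.45, 5.31 and 5.31, and Ddit4 read 8.23, 9.37, 11.26, 8.92 and 8.78. In this line these 3 targets were thus high in transplants 1 and 2 and lower in 3 and 4, while Tpi1 stayed between 11.45 and 11.74 in all 4.

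In series 42, transplant 4 held the highest value of the line for 12 of 14 enzymes and 8 of 17 targets, and for 15.5% of all genes. Tpi1 read 11.40 in its primary tumor and 11.51 to 11.70 after it. Egln3 was low in the whole line, between 5.92 and 6.63, and Ddit4 between 6.44 and 7.79.

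In series 32 several targets were lower in every transplant than in the primary tumor, and the mean of the luminal epithelial genes was lower too. Slc2a1 read 10.67 in the primary tumor and 8.59, 9.28, 8.02, 7.95 and 8.52 in transplants 1 to 5, Ero1a 10.39 and then 7.91, 8.88, 7.50, 7.38 and 6.98, and Egln3 8.42 and then 5.84, 7.84, 6.15, 5.31 and 5.92. The mean of the 11 luminal genes in this line was 10.72, 10.21, 9.28, 7.49, 6.75 and 5.86 over the same tumors. Each of these values comes from 1 tumor, and transplant 5 of this line had the lowest array median, 96.1. Eno2 went up in the same line, from 7.31 and 7.13 in the primary tumor and transplant 1 to 8.05, 8.07 and 8.08 in transplants 3 to 5, and Slc2a3 from 7.27 at transplant 2 to 8.57, 8.60 and 8.51. The part of the luminal genes in these values was not tested beyond the fit given below.

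In series 34 several values differed between transplants 2 and 3. The luminal mean was 9.36 at transplant 2 and 5.92 at transplant 3, Eno2 went from 7.02 to 9.57, Slc2a3 from 7.09 to 8.92 and Adm from the floor to 9.74. Egln3 went from 8.06 to 6.82 between these tumors. Slc2a1, unlike in series 32, read 9.18 and then 10.19, and P4ha1 read 8.73 and then 10.55. Transplant 2 of series 34 was the lowest of its line in 14 of 17 targets and 11 of 14 enzymes, and in 18.0% of all genes.

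Lines differed in their slope over transplants 1 to 5 for Slc2a3 (limma F test of series by transplant number, adjusted p = 0.0300) and Pfkfb3 (0.0454), 2 of 31 genes against 24.3% of all genes. The slope of Slc2a3 was 0.48 per transplant in series 34 and 0.33 in series 32, and between -0.07 and 0.17 in the other lines. That of Pfkfb3 was 0.42 in series 25L and 0.39 in series 13, and -0.56 in series 10, -0.21 in series 32 and -0.14 in series 42.

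Genes of neighbouring pathways were listed with earlier results of these data known, and their counts stand against 4.44% of all genes higher and 5.06% lower over all transplants, and 7.37% and 6.72% at transplant 5. Of 9 other glycolytic isozymes 0 rose and 0 fell over all transplants by limma (3 at an unadjusted p below 0.05), and their median was 0.04. At transplant 5, Ldhb, the lactate dehydrogenase subunit of heart, fell by 0.83 ± 0.24 (limma adjusted p = 0.0183) in these tumors, in which Ldha rose. Of 37 other hypoxia targets 2 rose, Plod2 (0.58 ± 0.18) and Rbpj (0.33 ± 0.09), and 1 fell, Zfp36l1 (-0.39 ± 0.11), with a median of 0.08, and Rbpj and Zfp36l1 are named here after their values were seen. At transplant 5, 6 rose and 3 fell. They included Ndufa4l2, a HIF target of mitochondria (1.19 ± 0.38), Plod2, a collagen lysyl hydroxylase gene (1.04 ± 0.24), the phosphatase gene Dusp1 (0.84 ± 0.25) and Kitlg, the stem cell factor gene (-0.72 ± 0.23).

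Of 16 regulators of the HIF pathway 0 rose and 2 fell over all transplants. Crebbp, a coactivator of HIF, fell by 0.52 ± 0.12 (limma adjusted p = 0.00421) and Egln2, a prolyl hydroxylase gene, by 0.17 ± 0.05 (0.0368). At transplant 5, 1 rose and 3 fell. Crebbp fell by 0.68 ± 0.16 (limma adjusted p = 0.00463) and Epas1, which encodes HIF-2 alpha, by 0.63 ± 0.21 (0.0382). Egln2 fell by 0.20 ± 0.07 (0.0496), and Elob, of the complex that degrades HIF alpha, rose by 0.22 ± 0.07 (0.0444). In the slope 1 of the 16 fell, Arnt (-0.13 ± 0.04, limma adjusted p = 0.0407), where 3.85% of all genes did. HIF alpha subunits are controlled mainly as protein, which arrays do not measure.

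Around the glycolytic chain, 2 of 7 pentose phosphate genes rose over all transplants, Rpe (0.40 ± 0.10) and Pgls (0.17 ± 0.05). Of 14 genes of pyruvate and lactate use 1 rose, Pdha1 of pyruvate dehydrogenase (0.17 ± 0.06), and at transplant 5 its inhibiting kinase gene Pdk2 fell by 0.75 ± 0.25. Of 11 genes of glycogen and gluconeogenesis 2 rose, the glycogen phosphorylase gene Pygl (0.93 ± 0.26) and Ugp2 (0.23 ± 0.08). Of 18 genes of the tricarboxylic acid cycle 1 rose, Dlst (0.19 ± 0.06), and at transplant 5 Mdh2 rose by 0.29 ± 0.10 and Idh1 fell by 0.68 ± 0.19.

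Genes of cycling cells and of luminal epithelium also had calls. Of 12 genes of cycling cells 5 rose over all transplants (median 0.34), with the mean of the list between 7.70 and 8.92 in the primary tumors and between 7.36 and 9.40 in the transplants. This mean was also used as a covariate, an alternative chosen after seeing the data. With it 0 of the 31 genes passed over all transplants in limma, with 4.21% of all genes called. There 9 members had an unadjusted p below 0.05 and 28 differences were above 0 (median 0.25). At transplant 5 only Aldoa passed, with 6.32% of all genes called. Of 11 luminal genes 0 rose and 4 fell over all transplants (median -0.75), and 7 fell at transplant 5. With the luminal mean as a covariate 11 of the 31 genes passed over all transplants, where 8.13% of all genes did. At transplant 5, 11 passed as well, where 3.71% of all genes did. Of these, 9 and 7 were among those called without the covariate, and Slc2a1 and Ddit4 passed in both comparisons.

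Of 9 macrophage genes 0 passed over all transplants in limma (4 at an unadjusted p below 0.05, median 0.27), with list means of 8.82 to 10.34 in the primary tumors and 8.24 to 10.60 in the transplants. C1qa rose at transplant 4 (0.70 ± 0.22). At transplant 5 Fcer1g rose (0.54 ± 0.19) and Cd14 fell (-0.90 ± 0.25), with a median of 0.38. In the slope Lyz2 rose and Cd14 fell, and all 9 had an unadjusted p below 0.05 (22.9% of all genes). Of 10 fibroblast genes 0 passed (2 unadjusted, median 0.49), with means of 7.35 to 11.51 and 6.80 to 12.49. At transplant 5, 0 passed as well, with 10 of 10 differences above 0 (54.6% of all genes) and a median of 0.77. In the slope 2 of the 10 rose, Col1a2 and Thy1, where 2.74% of all genes did. Of 8 endothelial genes 0 passed (1 unadjusted, median 0.09). Of 10 skeletal muscle genes tested 1 fell, Myh1 (-0.35 ± 0.10), and Acta1, Myh4, Tnnc2, Tnni2, Tnnt1 and Actn3 were at the floor in more than 1 in 2 arrays. Of 2 granulocyte genes tested 1 rose, S100a9 (1.19 ± 0.39), while S100a8 and Mmp9 were at the floor in more than 1 in 2 arrays. Of 3 red blood cell genes and 3 adipocyte genes 0 passed, with 0 at an unadjusted p below 0.05. The adipocyte genes Plin1 and Lep were likewise at the floor in more than 1 in 2 arrays. The parts of macrophages and fibroblasts in the results were not tested. Without the 6 tumors with high muscle genes, 9 of the 31 genes passed over all transplants and 9 at transplant 5. Of all genes 9.27% and 9.62% passed in these fits. Gpi, Pfkl and Ldha lost their call over all transplants. At transplant 5, 8 of 13 calls were kept, Ddit4 was new, and Hk2, Eno1, Eno2, Ldha and Ndrg1 were lost. Without the array with the lowest median, 12 passed over all transplants and 14 at transplant 5 (10.7% and 11.1% of all genes). In that fit Eno2 was lost at transplant 5, and Slc2a1 and Pfkfb3 were new.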

How the data were processed

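Each of the 65 tumors gave total RNA from frozen tissue, hybridised as biotin-labelled cRNA to 1 Affymetrix rat array, per the labels' protocols. The deposited values are linear signal intensities per probe set, made by the authors, from 1 to 12011. Their summarisation and normalization are not given in the sources used here. Arrays (medians 96.1 to 176) were scaled to a common median of 162, values under the pooled 10th percentile (39.8) were raised to that floor before taking log2. Genes were named through the platform annotation. Of 15866 probe sets that are no control 12783 named 1 gene. The brightest probe set per gene was kept, and genes with a mean log2 under 6.35 (the lowest 25%) were left out. The number of arrays limits the precision.

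limma 3.58.1 in R 4.3.3 fitted generation with series as a block over all 65 arrays and adjusted p by Benjamini-Hochberg over 8499 genes. The script was tested on simulated data. The pairing comes from the lines of descent in the design text. Deviations from the generation means correlated at 0.38 within a line and -0.04 between lines on average, and 50 of 65 arrays correlated best with their own line.

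The 34 genes and all lists (other isozymes, other hypoxia targets, HIF regulators, neighbouring pathways, cell markers) were chosen with earlier results of these data known. Values by generation are given for members past adjusted p 0.05 over all transplants, at transplant 5 or in the slope, and line means for the 3 members with the largest and the 3 with the smallest share of variance between series. Differences of list genes are given only where the gene passed in a comparison or in the slope, and not every gene that passed is named. No gene of the cycling and luminal lists is named. Promoters are shown for at most 4 called members with a motif. Alternatives changed the block, scaling, floor, filter, array weights, probe set rule, RNA quality covariates and lines used. Leaving out tumors with high muscle genes or the lowest array median, the cycling and luminal covariates and the control probe sets were added after seeing the data.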

Additional observations from a re-analysis of the deposited data

Results flagged for a closer look

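Among 53 groups of values checked for a sample far from the others, 4 had one, and chance gives about 1 in 20. The transplant 5 minus primary difference of Hk1 was 0.94 in series 25L, against -0.36 to 0.18 in the other lines. That of Slc2a1 was -2.16 in series 32, against -0.13 to 1.95 in the others. Transplant 5 of series 32 had the lowest array median, 96.1. The mean of the 14 enzymes in the primary tumor of series 25L was 9.11, the lowest of its line, where the transplants had 9.79 to 10.18. The mean of the 17 hypoxia targets in transplant 2 of series 34 was 8.25, where the other tumors of the line had 9.05 to 9.48. Lines differed in their slope over transplants for Slc2a3 (limma adjusted p = 0.0300) and Pfkfb3 (0.0454), by the test of series by transplant number. The causes were not tested.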

How the results depend on the processing

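Of the 31 genes 12 passed over all transplants, 13 at transplant 5 and 0 in the slope. With no replicate block (series left out of the model) the counts were 0, 0 and 0 (1.00%, 0.435% and 0% of all genes). With 1 value per series they were 0, 2 and 0 (1.59%, 1.56% and 0% of all genes). With array weights they were 0, 1 and 0 (3.89%, 3.61% and 0% of all genes). With the cycling mean as a covariate, added after seeing the data, they were 0, 1 and 0 (4.21%, 6.32% and 3.20% of all genes). The cause of these losses was not tested. Leaving out each series in turn gave 6 to 16 calls over all transplants, 9 to 17 at transplant 5 and 0 to 3 in the slope. The share of all genes called ran from 5.74% to 9.70%, from 8.99% to 14.9% and from 0.165% to 11.7%. Series as a random block, another scaling, floor, filter or probe set rule, the RNA quality covariates, 25L and 25R as 1 block, and leaving out tumors with high muscle genes or the lowest array median gave 8 to 13 calls over all transplants and 9 to 16 at transplant 5. In these fits 4.79% to 11.2% of all genes were called over all transplants and 9.62% to 16.4% at transplant 5. Values near the floor, as for Adm, carry little order. Having 1 primary tumor per line limits each line's difference.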
